A study of Mus musculus with 145 samples.

Results

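The complement components and receptors C1qa, C1qb, C1qc, C3, C3ar1, C5ar1, Cfb and Cfp were examined in microarrays of sorted mouse immune and stromal cells. For each gene the probe set with the highest mean among those annotated to that symbol alone was taken, which gave 1 probe set for 7 of the 8 genes, out of 19752 symbols on the array. C3 was not analysed here. The arrays fell into 65 groups by cell type, tissue and treatment. Groups held 1 array in 12 cases, 2 in 28, 3 in 23 and 4 in 2, and nothing in the labels says whether arrays of a group came from separate animals, so p-values measure the spread between arrays only.

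The macrophage groups, sorted as MertK+ CD64+ in 5 of 7 cases, had 3 arrays each. Peritoneal macrophages were F4/80hi ICAM2hi CD11bhi cells of 9-week-old males on a mixed background, either Gata6ko or ctrl. The labels give no promoter or Cre for the deletion. Liver macrophages titled 480hi and 480int, alveolar macrophages (CD11c+ CD11b-), CD11b+ CD11c- lung macrophages, lung monocytes, and monocytes of skin-draining lymph nodes titled 6+2+ (3 arrays each) came from untreated 6-week-old C57BL/6 males. The liver cells titled 480int carry the marker label F480lo, and they are called F4/80 intermediate here after their title. Blood monocytes titled 6+2- (2 arrays) carry the same marker label, CD115+ Ly6C+ MHCII+, as the single array titled 6+2+, so title and marker disagree. Visceral fat gave macrophages (3), CD11b+ dendritic cells (3, background not given) and CD11b- dendritic cells (2) of males aged 45 to 52 days. Skin mast cells (3), peritoneal mast cells (4, of which 2 have blood as their source and 1 has its exclusion markers unfilled), blood eosinophils (3) and blood neutrophils (4) were set beside them. These came from males of C57BL/6 type, as did the blood monocytes. Mast cells and blood monocytes were taken at 6 weeks, eosinophils at 44, 48 and 50 days, and neutrophils at 43 days, 48 days, 6 weeks and 7 weeks, so age varied within those groups.

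Lymph node stroma of 6-week-old C57BL/6J males comprised lymphatic endothelial cells (LEC, gp38+ CD31+), double-negative cells (DN, gp38- CD31-) and fibroblastic reticular cells (FRC, gp38+ CD140a+), with 2 arrays each. DN and FRC were also sorted 6 days after CFA, again with 2 arrays each. Thymic epithelium at 8 weeks was titled CEChi, MEChi and MEClo (2 arrays each), although all of these carry 1 marker label. Medullary cells with high MHCII from 5-week-old mice of mixed sex were GFP+ KO, GFP+ and GFP- (3 each), and the labels do not name the gene lost in the KO. CD4 and CD8 T cells of lymph nodes were cultured with antiCD3 CD28 beads, and 24 h was set against control (2 each). CD4 effectors at day 8 of LCMV infection were set against naive CD4 cells of the spleen (2 each). All these T cells came from 6-week-old C57BL/6 or C57BL/6J males. Some groups of 1 array enter the text only as levels. Blood basophils, mesenteric node monocytes and mast cells titled MC.To and MC.digest.PC were from 6-week-old mice. So were LEC taken 6 days after CFA and FRC titled Cad11.WT, while fat eosinophils were from a 45-day-old source.

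Complement is a protease cascade of plasma and tissue fluid that tags targets for uptake. The classical pathway starts when C1q, built from A, B and C chains, binds immune complexes or dying cells. The alternative pathway runs on factor B, encoded by Cfb, whose protease fragment joins C3b to make a convertase, and on properdin, encoded by Cfp, which stabilises it. The released fragments C3a and C5a act through the G-protein-coupled receptors C3ar1 and C5ar1 on myeloid cells. Tissue macrophages are a known source of C1q.

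In the annotation of GRCm38.p6 all 7 genes measured are protein coding. C1qb (chr4:136880126-136886200), C1qc (chr4:136889801-136892936) and C1qa (chr4:136895916-136898844) lie side by side. C3ar1 is at chr6:122847140-122856157, C5ar1 at chr7:16246743-16259540, Cfb at chr17:34856374-34862514 and Cfp at chrX:20925454-20931555.

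The start regions of both C1q genes present in the table are shown because all C1q chains were high in the same macrophage groups, and that of C3ar1 because this receptor was also high in granulocytes that had little C1q. Sequences are from RefSeq, build GRCm38.p6, read 5′ to 3′ along the gene, and capitals mark GAGGAA or its reverse complement, the core bound by PU.1 and other ETS factors. C1qb lies on the minus strand and its bases are chr4:136886201-136886450. The C1qc bases, also on the minus strand, are chr4:136892937-136893164, and those of C3ar1, minus strand again, are chr6:122856158-122856407.
C1qb: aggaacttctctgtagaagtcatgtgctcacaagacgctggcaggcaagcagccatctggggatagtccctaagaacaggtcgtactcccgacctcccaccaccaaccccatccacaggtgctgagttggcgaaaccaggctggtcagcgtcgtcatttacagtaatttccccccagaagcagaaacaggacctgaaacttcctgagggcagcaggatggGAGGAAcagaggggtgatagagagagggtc
C1qc: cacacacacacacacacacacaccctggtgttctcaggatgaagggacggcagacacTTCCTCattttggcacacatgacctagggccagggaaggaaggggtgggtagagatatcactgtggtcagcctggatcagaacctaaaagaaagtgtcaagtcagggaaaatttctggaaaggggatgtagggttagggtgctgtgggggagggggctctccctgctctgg
C3ar1: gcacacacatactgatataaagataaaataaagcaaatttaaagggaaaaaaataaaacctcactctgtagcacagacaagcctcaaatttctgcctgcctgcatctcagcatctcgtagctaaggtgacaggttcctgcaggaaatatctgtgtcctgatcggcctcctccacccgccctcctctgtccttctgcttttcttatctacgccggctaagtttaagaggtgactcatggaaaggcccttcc
In the 250 bases before each listed start, GAGGAA was found on either strand in 23.3% of 32851 promoters. C1qb held 1 match, on its own strand, and C1qc held 1, on the opposite strand. The same window of C3ar1, C5ar1 and Cfp held none, and C1qa and Cfb were not among the sequences used. TGCTGAC, which MAF factors bind, occurred in 3.81% of promoters and TTGCNNCAA, a C/EBP site, in 1.74%, both strands searched. Neither was present in the windows of the 5 members with a sequence. TATAAA, searched as well, occurred in 12.4% of promoters and once in the C3ar1 window.

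Values below are RMA intensities on the linear scale, and differences are on the log2 scale. Array medians ran between 112 and 146.7, and the median of all values was 126, below which a probe set is called dim. An intensity depends on the probes as well as the RNA, so levels are compared between groups for 1 gene and never between genes. Dim values include background, so a difference against a dim group may understate the ratio of the RNA. In sorted bulk samples, fewer cells of a type and less RNA per cell cannot be told apart. A gene was called changed at an adjusted p under 0.05. Overlap between groups describes the arrays for 1 gene. The share of all probe sets without overlap was not counted, so nothing is read from how many members lacked it.

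The C1q chains were highest in macrophages of every tissue sampled but the alveoli. C1qa averaged 6471 ± 310.3 (SD, n = 3) in CD11b+ lung macrophages, 6269.8 ± 328 (SD, n = 3) in F4/80 high liver macrophages and 5347 ± 642 (SD, n = 3) in fat macrophages. It was lower in Gata6ko peritoneal (4485), control peritoneal (4313) and F4/80 intermediate liver macrophages (4154), and each of these 6 groups overlapped its neighbour in the order. The next group, CD11b+ fat dendritic cells, stood apart at 384 ± 54.8 (SD, n = 3). Alveolar macrophages had 83.1, 85.8 and 84.4, below the median of all values. Over the 65 groups, 14 were at or above that median for C1qa, 25 for C1qb and 14 for C1qc.

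C1qb ran in a like order, with 10073 ± 288 (SD, n = 3) in F4/80 high liver macrophages at the top, free of overlap with the next group, and 7365 ± 1174 (SD, n = 3) in Gata6ko peritoneal macrophages at the lower end of the 6. CD11b+ fat dendritic cells followed at 2447 ± 557 (SD, n = 3) and skin-draining node monocytes at 1031 ± 182 (SD, n = 3). Alveolar macrophages had 79.4, 69.1 and 66.6. C1qc spanned 5391 to 8481 over the same 6 macrophage groups and was 47.4, 58.9 and 59.99 in the alveolar arrays. Outside the phagocytes, C1qb reached 584 ± 72.7 (SD, n = 2) in thymic MEChi cells and 572 ± 31.5 (SD, n = 3) in GFP+ medullary cells, where C1qa and C1qc stayed near or under the median (89.3 and 118 in MEChi, 147.4 and 129.6 in GFP+ cells). Blood eosinophils were over it for all 3 chains, at 486 ± 25.0 (SD, n = 3) for C1qb, 239 for C1qc and 156 for C1qa.

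The anaphylatoxin receptors divided the myeloid groups differently. C3ar1 was highest in the single blood basophil array (8604), followed by macrophages of the lung (CD11b+, 7619 ± 455, SD, n = 3), the peritoneum and fat (7082 ± 1147, SD, n = 3). The peritoneal arrays averaged 6391 ± 465.7 (SD, n = 3) in Gata6ko and 7391 ± 628 (SD, n = 3) in control, and each of these groups overlapped fat macrophages. Eosinophils of fat (4556, n = 1) and blood (3519 ± 937, SD, n = 3) came next to F4/80 high liver macrophages (4209.7 ± 648, SD, n = 3), again with overlap. C5ar1 was highest in CD11b+ lung macrophages (3641 ± 514, SD, n = 3), then fat macrophages (2549 ± 622, SD, n = 3), blood neutrophils (2383 ± 166, SD, n = 4) and alveolar macrophages (1954 ± 386, SD, n = 3), each overlapping its neighbour. Neutrophils and alveolar macrophages, high in C5ar1, were dim in C3ar1, at 44.9 to 93.5 in neutrophils and 53.7 to 56.8 in alveolar macrophages. Neither receptor reached the median in any mean of the 7 stromal, 10 thymic epithelial or 25 T cell groups.

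The alternative pathway genes had unlike distributions. Cfb, factor B, was led by stroma: 3247 in the 1 LEC array after CFA, 3636 ± 315 (SD, n = 2) in LEC, 2317 ± 141 (SD, n = 2) in FRC after CFA and 2638 ± 402 (SD, n = 2) in FRC. The highest group outside stroma was control peritoneal macrophages at 1334 ± 299.7 (SD, n = 3), followed without overlap by skin-draining node monocytes at 989.9 ± 204 (SD, n = 3). LEC and FRC did not overlap each other, while FRC with and without CFA did. Cfp, properdin, was led by macrophages, with 6905 ± 1404 (SD, n = 3) in Gata6ko peritoneal, 7709 ± 1343 (SD, n = 3) in control peritoneal and 7181 ± 895 (SD, n = 3) in F4/80 high liver macrophages, which overlapped each other. It was at or above the median in 64 groups, the exception being the single FRC.Cad11.WT array at 113. Cfb reached the median in 29 groups, C3ar1 in 17 and C5ar1 in 17.

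**Figure D1:**
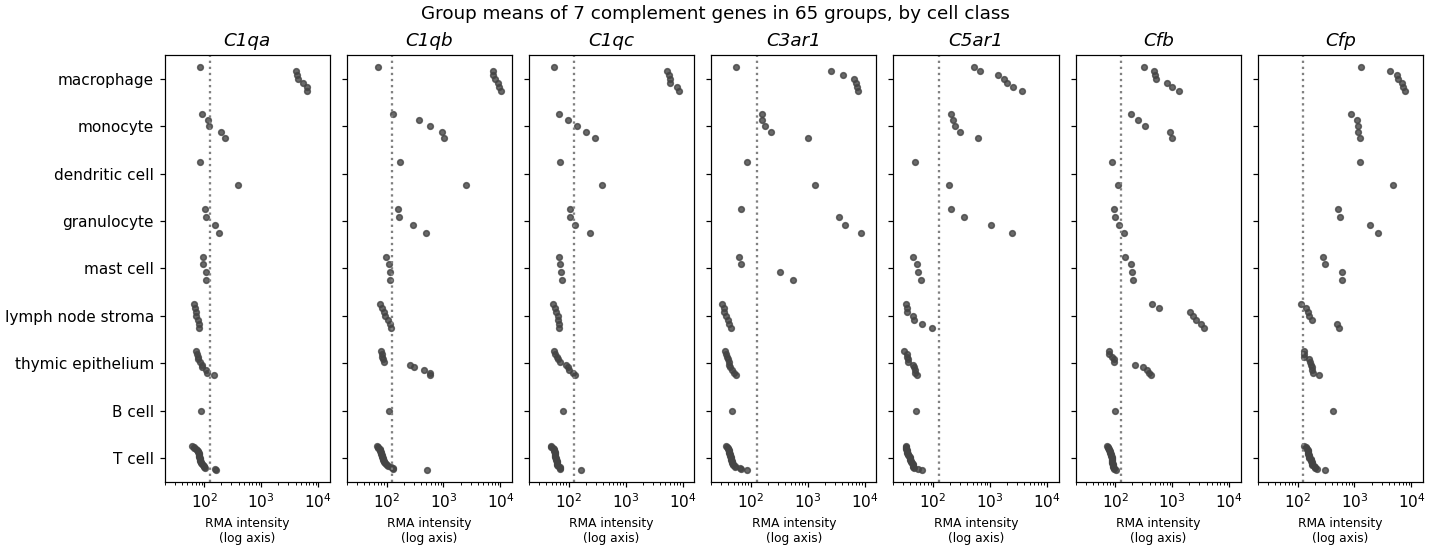
Group means of the 7 genes in 65 groups by cell class, as RMA intensity on a log axis, with 1 point per group and a dotted line at the median of all values. One macrophage group, the alveolar one, is left of the line for C1qa (84.4), C1qb (71.7), C1qc (55.4) and C3ar1 (55.1), while Cfb is highest in lymph node stroma.

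The genes closest to each member in pattern were taken by Pearson's r of log2 group means over the 65 groups, which share tissues and processing. C1qa and C1qc had r = 0.99, and the next genes for C1qa were Ccl24, a chemokine (0.97), Fcna, which encodes ficolin A of the lectin pathway (0.95), Vsig4, a macrophage receptor for C3 fragments (0.94), and C1qb (0.93). For C1qb the list was C1qc, C1qa, Ccl24, Cmklr1 and Tmem37 (r of 0.85 to 0.96). Adgre1, which encodes F4/80, was in the lists of C3ar1 (0.84), C5ar1 (0.90) and Cfp (0.89), and Csf1r, the receptor for macrophage growth factor, was in that of Cfp (0.88). C3ar1 was closest to Kcnk13 (0.85). For Cfb the leading genes were Arsa (0.85), Nupr1, Fam43a, Sardh and Dennd2a (0.83). Between members, r with Cfb ranged between 0.23 and 0.41, and the other pairs ranged between 0.73 and 0.99.

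Alveolar macrophages, which clear surfactant in the airspace, had far lower C1q and C3ar1 than the CD11b+ macrophages of the same organ. C1qa was 83.1, 85.8 and 84.4 in alveolar arrays, against 6189.7, 6419.6 and 6804 in CD11b+ lung arrays, a log2 difference of -6.26 ± 0.20 (SE; adjusted p = 2.00e-20). For C1qb the values were 79.4, 69.1 and 66.6 in alveolar and 9167, 9078 and 9637 in CD11b+ lung macrophages (-7.02 ± 0.35 SE, adjusted p = 6.89e-16). The 2 sets of arrays were far from overlapping for both chains. C1qc differed by -7.16 ± 0.25 (SE; adjusted p = 1.52e-19).

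Of the receptors, C3ar1 had 54.9, 56.8 and 53.7 in alveolar macrophages and 7207, 8107 and 7542 in CD11b+ lung macrophages (-7.11 ± 0.33 SE, adjusted p = 1.20e-16). C5ar1 was 2022, 2302 and 1539 in alveolar and 4041, 3822 and 3061 in CD11b+ lung macrophages, a much smaller difference of -0.91 ± 0.27 (SE; adjusted p = 0.00634). Properdin fell by 2.22 on the log2 scale (adjusted p = 2.04e-08), with 1305, 1688 and 913 in alveolar arrays and 6250.0, 5401 and 6087 in CD11b+ lung arrays. Cfb lay the other way without passing the test, at 494, 482 and 521 in alveolar and 277, 296 and 384 in CD11b+ lung macrophages (0.66 ± 0.29 SE, adjusted p = 0.067); the groups did not overlap, and it passed without CD11b+ lung replicate 3 (adjusted p = 0.0467). Thus 6 of 7 members were lower, where 43.6% (26.7% higher and 17% lower) of all probe sets tested were called in either direction, and the members' median log2 difference was -6.26, against 0.046 over all tested. The alveolar arrays carried the markers of their label: Mertk was 4550.3 and Cd68 6345, and all 5 alveolar macrophage markers measured were over the median there. Monocyte markers summed to 188 to 201 in alveolar and 9714 to 11187 in CD11b+ lung arrays. Endothelial markers summed to 411 to 470 and 6951 to 8345 in the same order. Their part in the result was not tested.

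Of the rest of the pathway, 2 of 29 other complement genes tested were higher and 15 were lower. Vsig4 was 26.7 in alveolar and 1273 in CD11b+ lung macrophages (-5.56 ± 0.39 SE, adjusted p = 1.02e-12). Cd55, which disables convertases on host cells, was 29.6 in alveolar and 809 in CD11b+ lung macrophages (-4.78 ± 0.22 SE, adjusted p = 1.19e-16). Itgax and Itgam, which encode CD11c and CD11b, also moved but were used to sort these cells.

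The CD11b+ lung macrophages were then set against lung monocytes, the blood-derived cells of the same tissue, and 6 of 7 members were higher, where 39.9% (16.9% higher and 22.9% lower) of all probe sets were called. C1qa was 6189.7, 6419.6 and 6804 in the macrophages, against 91.1, 93.2 and 159 in the monocytes (5.87 ± 0.20 SE, adjusted p = 4.24e-19). C1qc rose by 6.02, C3ar1 by 5.15, C1qb by 4.49 and C5ar1 by 3.62 on the log2 scale, with adjusted p between 2.98e-17 and 2.26e-11. Cfp had 6250.0, 5401 and 6087 in macrophages and 912, 958 and 1429 in monocytes (2.45 ± 0.25 SE, adjusted p = 4.52e-09). Cfb stood at 277, 296 and 384 in macrophages and 285, 359 and 349 in monocytes, overlapping, with a difference of -0.06 ± 0.29 (SE; adjusted p = 0.909). The members' median difference was 4.49, against -0.017 over all probe sets tested. Endothelial markers summed to 6951 to 8345 in macrophages and 491 to 529 in monocytes. Monocyte markers overlapped, at 9714 to 11187 and 9249 to 10458. Their part in the result was not tested. Among other complement genes, 14 of 29 were higher and 3 lower, with C4b, the C4 of the classical pathway, at 1873 in macrophages and 82.8 in monocytes (4.484 ± 0.29 SE, adjusted p = 4.28e-13) and Colec12, a scavenger collectin, at 2003 and 101 (4.29 ± 0.33 SE, adjusted p = 1.69e-11). C4a and C4b are close copies, so signal may be shared between their probes.

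Monocytes of the skin-draining lymph node carried more of 6 of 7 members than lung monocytes, a comparison in which 6.77% (3.07% higher and 3.7% lower) of all probe sets were called. The node arrays are titled 6+2+ and the lung title names no such subset, so subset and tissue cannot be told apart. C3ar1 was 634, 909 and 1436 in node monocytes, against 149.9, 186 and 351 in lung monocytes (2.13 ± 0.33 SE, adjusted p = 7.48e-05). Cfb had 755, 1106 and 1109 in node monocytes and 285, 359 and 349 in lung monocytes (1.57 ± 0.29 SE, adjusted p = 6.89e-04), with no overlap for either gene. C1qa (172, 291 and 217 in node and 91.1, 93.2 and 159 in lung monocytes) differed by 1.00 ± 0.20 (SE; adjusted p = 0.00123). C1qc differed by 1.25 ± 0.25 (SE; adjusted p = 0.00141), although lung replicate 3, at 238, lay level with the lowest node array. C1qb was 1147, 1124 and 821 in node monocytes and 183, 315 and 1218 in lung monocytes (1.30 ± 0.35 SE, adjusted p = 0.0204), and lung replicate 3 was above every node array. That array also had the highest C1qa, C1qc, C3ar1 and Cfp of its group. Its 5 macrophage markers also had the highest sum, 14065, against 12682 and 12608 in replicates 1 and 2. Its Mertk was 78.6, against 63.1 and 67.7 in the others. Mertk was higher in the node arrays, at 124, 206 and 220.2, without overlap, while the 5 macrophage markers summed to 13020.4 to 14653 in node and 12608 to 14065 in lung monocytes, and their part in the result was not tested. The C1qb call was lost without lung replicate 1 or 2 or node replicate 1 or 2 (adjusted p = 0.054 to 0.242). C5ar1, at 592, 357 and 891 in node and 230.4, 356 and 307 in lung monocytes (0.97 ± 0.27 SE, adjusted p = 0.0232), lost its call without node replicate 1 or 3 or lung replicate 1 (adjusted p = 0.0768 to 0.245). Cfp, 1282, 1209 and 1234 in node and 912, 958 and 1429 in lung monocytes, overlapped and did not pass (0.20 ± 0.25 SE, adjusted p = 0.741). The members' median difference was 1.25, against 0.0022 overall. In contrast to the members, 0 of 29 other complement genes tested were higher and 2 were lower: Cd93 was 1053 in node and 1856 in lung monocytes (-0.84 ± 0.16 SE, adjusted p = 0.00115), and Itgb2, the beta chain shared by the C3 fragment receptors CR3 and CR4, was 3364 and 4751 (-0.50 ± 0.14 SE, adjusted p = 0.029).

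Lung monocytes differed from blood monocytes titled 6+2- in 1 of 7 members, where 2.93% (2.22% higher and 0.708% lower) of probe sets were called. C1qb was 183, 315 and 1218 in lung and 124 and 135 in blood monocytes (1.67 ± 0.39 SE, adjusted p = 0.015). The lung arrays lay above the blood arrays, but the call was lost without blood replicate 2 or 3 (adjusted p = 0.166 and 0.133). C1qc (0.86 ± 0.28 SE, adjusted p = 0.0965) and Cfb (0.80 ± 0.32 SE, adjusted p = 0.217) also had every lung array above both blood arrays and did not pass, C1qc passing without lung replicate 1 (adjusted p = 0.0248). C1qa, C3ar1, C5ar1 and Cfp overlapped. None of 29 other complement genes tested passed in limma, and 2 had an unadjusted p under 0.05. Over all probe sets 2425 of 15675 had an unadjusted p under 0.05, and 3 of the 7 members did.

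**Figure D2:**
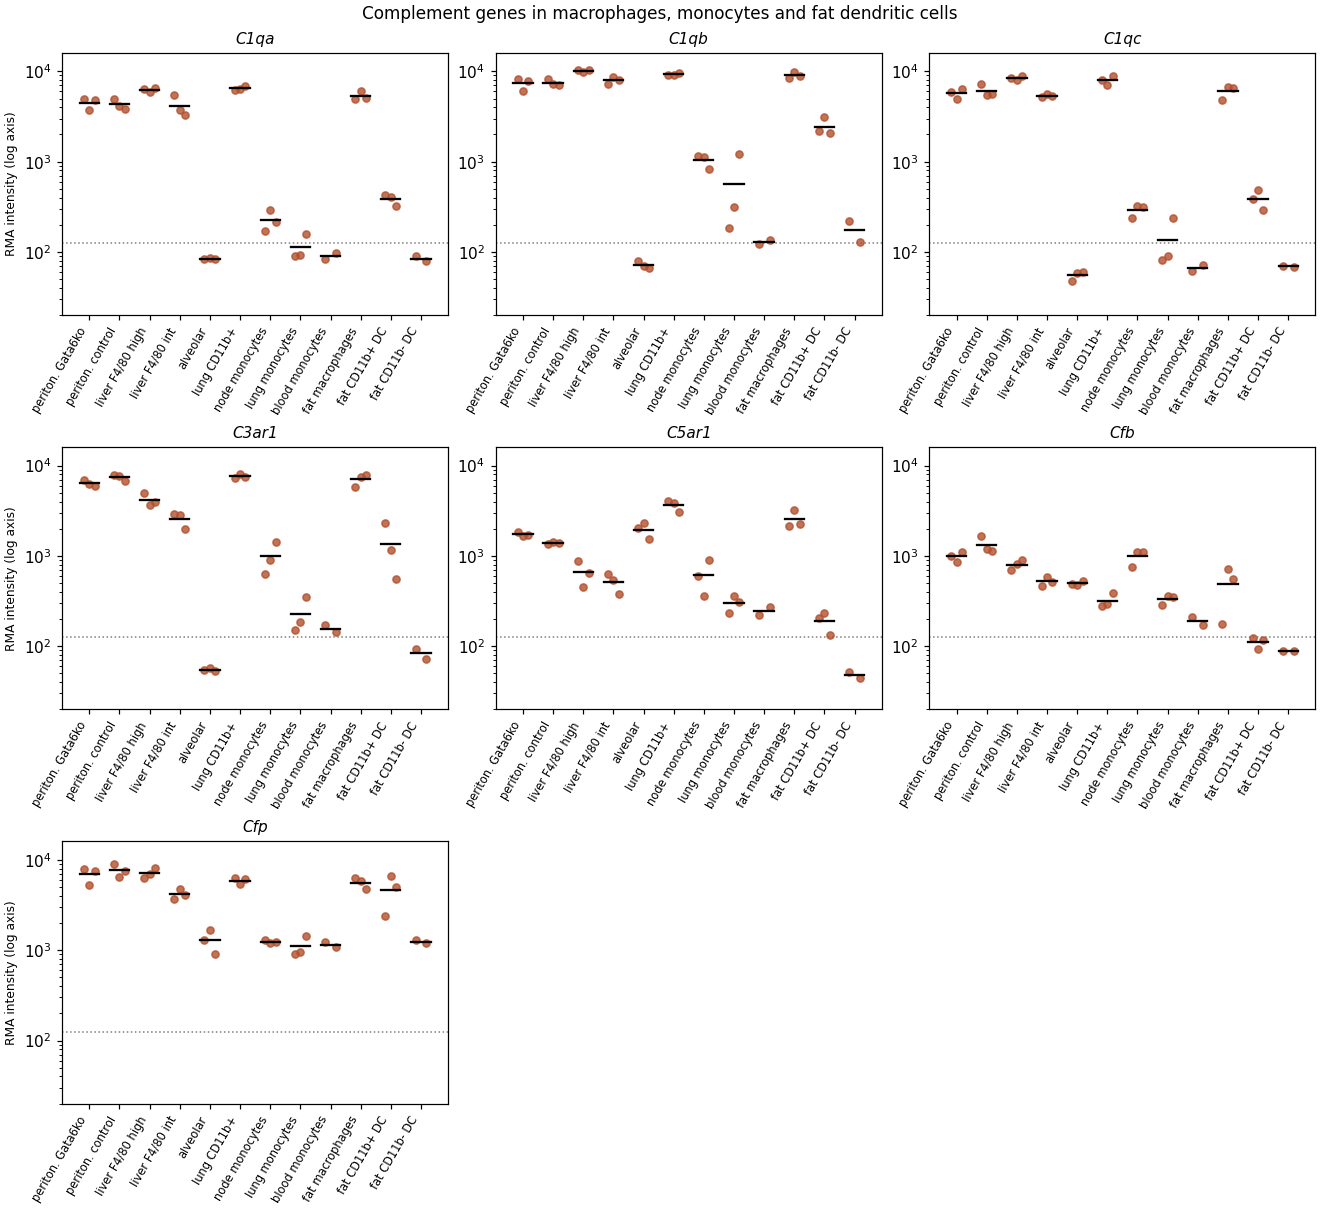
RMA intensity (log axis) of each gene in 12 phagocyte groups, with a point per array, a bar at the group mean and a dotted line at the median of all values. Alveolar macrophages are at the foot of the C1qa, C1qb, C1qc and C3ar1 panels but have 1954 for C5ar1, and the 3 lung monocyte arrays are widely spread for C1qb (183 to 1218).

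In the liver, F4/80 high macrophages exceeded F4/80 intermediate ones in every member's mean, and 2 of 7 passed, where 16.7% (7.94% higher and 8.8% lower) of probe sets were called. C1qa was 6366, 5904 and 6539 in high and 5474, 3713 and 3275 in intermediate cells (0.63 ± 0.20 SE, adjusted p = 0.0249). Cfp was 6384, 7009.8 and 8148 in high and 3662, 4708 and 4116 in intermediate cells (0.79 ± 0.25 SE, adjusted p = 0.0281). Neither pair of groups overlapped. C1qb (0.34 ± 0.35 SE, adjusted p = 0.59), C1qc (0.65 ± 0.25 SE, adjusted p = 0.0716), C3ar1 (0.72 ± 0.33 SE, adjusted p = 0.153) and Cfb (0.62 ± 0.29 SE, adjusted p = 0.166) did not overlap either and did not pass, and C5ar1 overlapped. With any 1 of the 6 arrays left out, 0 or 1 members passed. A fit of these groups alone called 6, but the share of all probe sets called in that fit was not counted, so nothing is read from it. The median difference was 0.63 for the members and 0.057 over all probe sets tested. Macrophage markers summed to 24556 to 26250 in high and 15646.5 to 18362 in intermediate arrays, and Kupffer cell markers to 26915 to 27465 and 17768 to 18544. Neither sum overlapped between the groups, and the part of these markers in the result was not tested. Markers of other cells differed too: monocyte markers summed to 239 to 327 in high and 1181 to 1877 in intermediate arrays, mast cell markers to 482 to 496 in high and 1143 to 1245 in intermediate arrays, dendritic cell markers summed to 1046 to 1327 in high and 2827 to 3756 in intermediate arrays, and endothelial markers to 13274 to 15289 in high and 17160.5 to 22088 in intermediate arrays. Their part in the result was not tested.

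Of the other complement genes, 2 of 29 were higher in F4/80 high liver macrophages and 10 lower. Masp1, a protease of the lectin pathway, was 464 in high and 1271 in intermediate cells (-1.45 ± 0.14 SE, adjusted p = 1.10e-08). Cd59a, an inhibitor of the membrane attack complex, was 935 in high and 2637 in intermediate cells (-1.49 ± 0.25 SE, adjusted p = 7.45e-05). Cd93 was 437 and 1609.9 (-1.86 ± 0.16 SE, adjusted p = 2.32e-09).

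Against alveolar macrophages, F4/80 high liver macrophages were higher in 5 members and lower in 1 of 7, where 44.8% (20.2% higher and 24.6% lower) of probe sets were called. The log2 differences were 6.21 for C1qa, 7.14 for C1qb, 7.26 for C1qc and 6.24 for C3ar1, all against dim alveolar values, with adjusted p between 8.55e-20 and 1.59e-15. C5ar1 had 876, 456 and 651 in liver and 2022, 2302 and 1539 in alveolar macrophages (-1.59 ± 0.27 SE, adjusted p = 1.19e-05), the reverse order, with no overlap. Cfp was 6384, 7009.8 and 8148 in liver and 1305, 1688 and 913 in alveolar macrophages (2.50 ± 0.25 SE, adjusted p = 1.76e-09). Cfb, 691, 813 and 898 in liver and 494, 482 and 521 in alveolar macrophages, did not overlap and did not pass (0.67 ± 0.29 SE, adjusted p = 0.0604). Hepatocyte markers summed to 6632 to 8005 in the liver arrays and 298 to 313 in the alveolar arrays; hepatocytes make many complement proteins, and their part in these values was not tested. The members' median was 6.21, against -0.059 over all tested. Other complement genes were mostly higher in liver macrophages, 20 higher and 2 lower of 29. C6, a subunit of the membrane attack complex, was 3556 in liver and 35.9 in alveolar macrophages (6.63 ± 0.36 SE, adjusted p = 2.92e-15). Fcna was 4497 and 90.4 (5.64 ± 0.23 SE, adjusted p = 5.47e-18). The alveolar arrays are the same as in the comparison with CD11b+ lung macrophages.

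Control peritoneal macrophages were set against F4/80 high liver macrophages, which differ in age (9 and 6 weeks) and background as well as tissue, so these cannot be told apart. Here 3 of 7 members were higher and 1 lower, where 44.6% (25.6% higher and 19% lower) of probe sets were called. C5ar1 was 1354, 1434 and 1399 in peritoneal and 876, 456 and 651 in liver macrophages (1.13 ± 0.27 SE, adjusted p = 9.11e-04). C3ar1 had 7865, 7629 and 6678 in peritoneal and 4936, 3691 and 4001 in liver macrophages (0.82 ± 0.33 SE, adjusted p = 0.0439). Cfb was 1679, 1192 and 1132 in peritoneal and 691, 813 and 898 in liver macrophages (0.72 ± 0.29 SE, adjusted p = 0.0437). C1qa ran the other way, at 4936, 4136 and 3868 in peritoneal and 6366, 5904 and 6539 in liver macrophages (-0.55 ± 0.20 SE, adjusted p = 0.0239). None of the 4 overlapped, and C1qb and C1qc, also without overlap, did not pass. With any single array of either group left out, 1 or 2 members passed in place of 4. C1qa lost its call without control replicate 2 or 3 or liver replicate 1 or 3, C3ar1 without each array but liver replicate 1, and Cfb without each array but control replicate 3 (adjusted p up to 0.0918, 0.126 and 0.189 in that order). C5ar1 kept its call in all 6. The members' median was 0.095, against 0.05 over all tested. Of other complement genes, 7 of 29 were higher and 16 lower. They included C2, a protease of the classical pathway, at 55.6 in peritoneal and 557 in liver macrophages (-3.30 ± 0.19 SE, adjusted p = 2.12e-14) and Cd55 at 62.5 and 680.4 (-3.50 ± 0.22 SE, adjusted p = 1.55e-13). Hepatocyte markers summed to 262 to 301 in peritoneal and 6632 to 8005 in liver arrays, and fibroblast markers to 607 to 703 and 1282 to 2664, and their part was not tested.

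Gata6 itself did not separate the arrays labelled Gata6ko from those labelled ctrl: it was 3047, 2568 and 3119.7 in Gata6ko and 2832, 3221 and 2553 in control peritoneal macrophages, overlapping. Whether this probe set lies in the deleted part is not given in the sources used here, so this level does not check the label if its probes lie outside. In the arrays labelled Gata6ko against control, none of 7 members was called by limma, where 6.14% (4.38% higher and 1.75% lower) of probe sets were, and none had an unadjusted p under 0.05 (2800 of 15675 probe sets did). C5ar1 was 1818, 1683 and 1703 in Gata6ko and 1354, 1434 and 1399 in control arrays (0.31 ± 0.27 SE, adjusted p = 0.597). Cfb was 1004, 860.0 and 1102 in Gata6ko and 1679, 1192 and 1132 in control arrays (-0.42 ± 0.29 SE, adjusted p = 0.495). Both pairs were free of overlap without passing, and the other 5 genes overlapped, with log2 differences between -0.21 and 0.052. Of 29 other complement genes, 2 were higher and 1 lower: Fcna at 4887 in Gata6ko and 1946 in control (1.35 ± 0.23 SE, adjusted p = 2.59e-04), Cd59a at 272 and 140.1 (0.90 ± 0.25 SE, adjusted p = 0.0293), and Cd93 at 1939 and 4292 (-1.16 ± 0.16 SE, adjusted p = 2.18e-05). Endothelial markers, of which macrophages can express Lyve1, summed to 2586 to 2888 in Gata6ko and 536 to 717 in control arrays. Monocyte markers summed to 5153 to 7013 and 1141 to 3138 in the same order of groups, and their part was not tested.

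Within fat, CD11b+ dendritic cells were higher than CD11b- ones in 6 of 7 members, where 36.2% (13.9% higher and 22.3% lower) of probe sets were called. C1qb was 2195, 3085 and 2060.4 in CD11b+ and 219.7 and 129 in CD11b- cells (3.84 ± 0.39 SE, adjusted p = 9.68e-09). C3ar1 was 2343, 1157 and 557 in CD11b+ and 94.3 and 73.1 in CD11b- cells (3.79 ± 0.37 SE, adjusted p = 3.63e-09). Cfp was 2402, 6621 and 5052 in CD11b+ and 1292 and 1196 in CD11b- cells (1.80 ± 0.28 SE, adjusted p = 1.08e-05). All CD11b+ arrays lay above both CD11b- arrays for these 3 genes and for C1qa (2.18 ± 0.22 SE, adjusted p = 7.09e-09), C1qc (2.45 ± 0.28 SE, adjusted p = 5.45e-08) and C5ar1 (1.95 ± 0.30 SE, adjusted p = 7.47e-06). Cfb stayed dim in both (0.33 ± 0.32 SE, adjusted p = 0.459). Although CD64 and Mertk were excluded in the sort, macrophage markers summed to 7931 to 10633 in CD11b+ and 3433 to 3502 in CD11b- arrays, with Adgre1 at 2399.9 and 65.8 and Mertk at 207 and 57.9. Dendritic cell markers ran the other way, at 967 to 1387 in CD11b+ and 9081 to 10853 in CD11b- arrays. Monocyte markers summed to 5414 to 7735 in CD11b+ and 3571 to 3599 in CD11b- arrays. Their part in the result was not tested. The members' median was 2.18, against -0.033 over all tested, and 3 of 29 other complement genes tested were higher and 0 were lower.

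Fat macrophages in turn exceeded CD11b+ fat dendritic cells in 6 of 7 members, where 34.7% (17.5% higher and 17.2% lower) of probe sets were called. C1qa was 4880.4, 6079.9 and 5082 in macrophages and 424, 408 and 322 in dendritic cells (3.80 ± 0.20 SE, adjusted p = 1.09e-14). C5ar1 was 2149, 3266 and 2232 in macrophages and 206, 232 and 134 in dendritic cells (3.75 ± 0.27 SE, adjusted p = 7.71e-12). Neither pair came near to overlap. C1qc rose by 3.97, C3ar1 by 2.61, C1qb by 1.91 and Cfb by 1.90 (adjusted p = 9.99e-05 or below). Cfp alone overlapped, at 6279.8, 5782 and 4782 in macrophages and 2402, 6621 and 5052 in dendritic cells (0.37 ± 0.25 SE, adjusted p = 0.261), and it passed without dendritic cell replicate 3 (adjusted p = 0.034). Fibroblast markers summed to 1889 to 2274 in macrophages and 748 to 1090.0 in dendritic cells, without overlap, and macrophage markers to 16009 to 19696 and 7931 to 10633; their part in the result was not tested. The members' median was 2.61, against -0.027 over all tested. Of other complement genes, 12 of 29 were higher and 3 lower, among them Vsig4 at 1092 in macrophages and 20.9 in dendritic cells (5.28 ± 0.39 SE, adjusted p = 1.55e-11) and C4b at 1757 and 122 (3.62 ± 0.29 SE, adjusted p = 1.04e-10). This comparison shares the CD11b+ arrays with the preceding one.

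Blood eosinophils and neutrophils differed in opposite directions in the anaphylatoxin receptors, and eosinophils were over the median for both. C3ar1 was 3021, 4599.9 and 2937 in eosinophils, against 44.9, 93.5, 74.6 and 59.9 in neutrophils (5.71 ± 0.22 SE, adjusted p = 2.79e-12). C5ar1 was 165, 186 and 267 in eosinophils and 2278, 2343, 2282 and 2627 in neutrophils (-3.56 ± 0.20 SE, adjusted p = 2.45e-10). Every array of each group was apart for both receptors. Properdin, which neutrophils are known to store in granules, was 587, 294 and 644 in eosinophils and 2476, 2454, 2810.2 and 2679 in neutrophils (-2.44 ± 0.21 SE, adjusted p = 5.01e-08). Eosinophils were also higher in C1qb (492.8, 458 and 506 in eosinophils and 97.5, 97.7, 217 and 237 in neutrophils, 1.71 ± 0.28 SE, adjusted p = 1.29e-04), C1qc (1.19 ± 0.19 SE, adjusted p = 1.07e-04) and C1qa (0.56 ± 0.18 SE, adjusted p = 0.0177). In all, 4 of 7 members were higher and 2 lower, where 38.2% (16.6% higher and 21.7% lower) of probe sets were called, and the median was 0.56, against 0.036 over all tested. Among the groups fitted together here, C1qa and C1qc were dim in all but eosinophils. They were tested only because eosinophils are high in them, so these calls add no separate support. The C1qa call was lost without eosinophil replicate 3 or neutrophil replicate 4 (adjusted p = 0.0502 and 0.0599), and Cfb overlapped (0.28 ± 0.17 SE, adjusted p = 0.207).

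Beside the C1q signal of eosinophils, Adgre1 was 4771 in eosinophils and 1237 in neutrophils, while Mertk was dim in eosinophils at 70.0. Eosinophils are known to carry F4/80. Csf1r (373 to 1315 in eosinophils and 1609 to 2214.5 in neutrophils) and Cd68 (238 to 344 and 2701 to 2905) ran the other way. The 5 macrophage markers summed to 4653 to 7191 in eosinophils and 5680 to 6637 in neutrophils, overlapping. Neutrophil markers in the eosinophil arrays summed to 755 to 4211, against 48708 to 57919 in neutrophils. Mast cell markers, 5 of 6 of which were over the median in the basophil array, summed to 584 to 2184 in eosinophils and 341 to 416 in neutrophils, and 14684 in the basophil array, which had the highest C3ar1. The part of these markers in the differences was not tested. Among other complement genes, 4 of 18 were higher and 5 lower. C5ar2, the second C5a receptor, was 252 in eosinophils and 2125 in neutrophils (-3.19 ± 0.24 SE, adjusted p = 1.06e-08), the same direction as C5ar1.

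Neutrophils set against blood monocytes titled 6+2- were higher in 3 and lower in 2 of 7 members, where 41.5% (15% higher and 26.5% lower) of probe sets were called. C5ar1 had 2278, 2343, 2282 and 2627 in neutrophils and 224 and 269 in monocytes (3.28 ± 0.23 SE, adjusted p = 3.54e-09). C3ar1 had 44.9, 93.5, 74.6 and 59.9 in neutrophils and 170.2 and 142 in monocytes (-1.24 ± 0.25 SE, adjusted p = 6.59e-04). Cfp was 2476, 2454, 2810.2 and 2679 in neutrophils and 1219 and 1075 in monocytes (1.18 ± 0.23 SE, adjusted p = 5.07e-04), and Cfb differed by -0.99 ± 0.19 (SE; adjusted p = 4.78e-04). The groups were apart for all 4. C1qc, dim in both, was called higher (0.62 ± 0.22 SE, adjusted p = 0.0308) and lost its call without neutrophil replicate 6 or 7 or either monocyte array (adjusted p = 0.0692 to 0.23). C1qc was tested here only because eosinophils, which were fitted with these groups, are high in it. The median was 0.23 for the members and 0.02 over all tested. C5ar2 was 2125 in neutrophils and 166 in monocytes (3.69 ± 0.27 SE, adjusted p = 7.38e-09), 1 of 5 higher and 1 lower among 18 other complement genes.

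Mast cells, which degranulate in response to anaphylatoxins, differed by tissue in C3ar1. Skin mast cells had 513, 598 and 556, against 69.7, 64.99, 60.2 and 47.8 in peritoneal mast cells (3.21 ± 0.22 SE, adjusted p = 8.18e-09), and the single mast cell arrays from muscle (titled MC.To) and from digested peritoneal cavity had 318 and 67.5. The peritoneal arrays were all dim and the skin arrays all well over the median. Cfp was 624, 563 and 648 in skin and 292, 277, 237 and 302 in peritoneal mast cells (1.15 ± 0.21 SE, adjusted p = 3.88e-04), again apart. Cfb was 132, 137 and 169.6 in skin and 204, 235, 176 and 218 in peritoneal mast cells (-0.51 ± 0.17 SE, adjusted p = 0.0333), and lost its call without skin replicate 2 or 3 or peritoneal replicate 0, 4 or 6 (adjusted p = 0.0506 to 0.139). C5ar1 was dim in both groups, and the C1q chains overlapped and did not pass. So 2 of 7 members were higher and 1 lower, where 27.9% (11.2% higher and 16.7% lower) of probe sets were called, and the median was 0.16, against -0.013 over all tested.

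Mast cell markers summed to 41734 to 44053 in skin and 42990.3 to 48590.2 in peritoneal arrays. Fibroblast markers summed to 2923 to 2973 in skin and 769 to 1021 in peritoneal arrays, and macrophage markers to 1238 to 1318 and 397 to 478, with Cd68 at 1015 in skin and Adgre1 dim at 40.3. Their part in the differences was not tested. Of other complement genes, 3 of 18 were higher and 2 lower, with Cd59a at 2425 in skin and 105 in peritoneal mast cells (4.59 ± 0.26 SE, adjusted p = 6.05e-10).

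Peritoneal mast cells were lower than blood eosinophils in 6 of 7 members and higher in Cfb, where 51% (32% higher and 19% lower) of probe sets were called. C3ar1 was 69.7, 64.99, 60.2 and 47.8 in mast cells and 3021, 4599.9 and 2937 in eosinophils (-5.84 ± 0.22 SE, adjusted p = 1.45e-12), and C5ar1 was 62.6, 36.7, 64.1 and 43.6 in mast cells and 165, 186 and 267 in eosinophils (-2.002 ± 0.20 SE, adjusted p = 2.51e-07). Cfb was 204, 235, 176 and 218 in mast cells and 94.5, 146 and 113 in eosinophils (0.84 ± 0.17 SE, adjusted p = 5.81e-04). Of these, no pair overlapped. C1qa, C1qb and C1qc differed by -0.73, -2.19 and -1.73, and Cfp by -0.80 with overlap (adjusted p = 0.00358 or below for these 4). Again C1qa and C1qc were tested only because eosinophils are high in them. The median difference was -1.73 for the members, against 0.067 over all tested. In mast cells, 5 of 18 other complement genes were higher and 9 lower. Cd55 was 1735 in mast cells and 195 in eosinophils (3.15 ± 0.19 SE, adjusted p = 5.10e-10), and C2 was 540.5 and 71.3 (2.89 ± 0.22 SE, adjusted p = 9.02e-09).

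**Figure D3:**
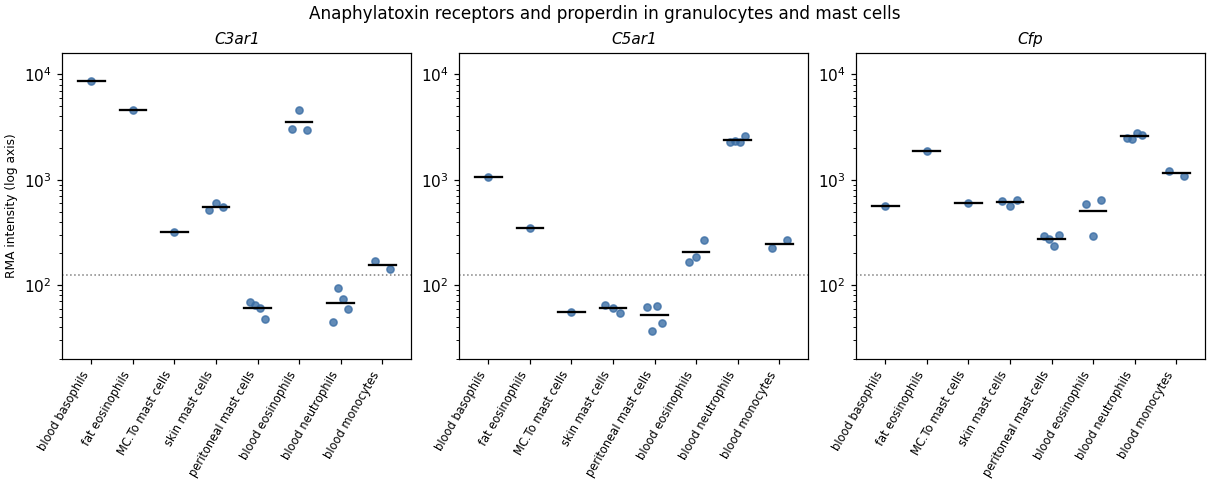
RMA intensity (log axis) of C3ar1, C5ar1 and Cfp in granulocytes, mast cells and blood monocytes, with a point per array, a bar at the group mean and a dotted line at the median of all values. Blood eosinophils are over the line for C3ar1 (2937 to 4599.9) and neutrophils under it (44.9 to 93.5), while for C5ar1 eosinophils (165 to 267) are far below neutrophils (2278 to 2627).

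In lymph node stroma Cfb and Cfp passed the filter on dim probe sets, which asks that 1 group of the fit reach the median of its arrays. The other 5 members, dim in every stromal group mean, were not tested. LEC had 3413 and 3859 for Cfb, against 2922 and 2354 in FRC (0.47 ± 0.15 SE, adjusted p = 0.0276). Cfp was 446 and 603 in LEC and 136 and 144 in FRC (1.89 ± 0.17 SE, adjusted p = 5.31e-06). Both of 2 members tested were higher in LEC, where 36.3% (16.3% higher and 20% lower) of probe sets were called, and no arrays overlapped. The Cfb call was lost without either LEC array or FRC replicate 2 (adjusted p = 0.0518 to 0.226), where the array left alone is taken to vary like the other groups. Endothelial markers summed to 28098 to 28908 in LEC and 865 to 1537 in FRC, and fibroblast markers to 3117 to 4236 and 35639 to 37202; macrophage markers were 646 to 731 and 541 to 612, with Adgre1 dim in both.

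Most of the other complement genes separated LEC from FRC: 9 of 22 were higher and 11 lower. C4b was 160.1 in LEC and 4770.1 in FRC (-4.99 ± 0.26 SE, adjusted p = 1.03e-07). C1s1, a protease of the C1 complex, was 154 and 4209.9 (-4.85 ± 0.27 SE, adjusted p = 1.77e-07). Vtn, which encodes vitronectin, an inhibitor of the terminal pathway, was 117 and 5300.3 (-5.53 ± 0.18 SE, adjusted p = 9.17e-09). Cd93 ran the other way, at 2005 in LEC and 133 in FRC (3.95 ± 0.44 SE, adjusted p = 3.29e-05).

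DN stroma had less factor B than FRC. Cfb was 416 and 461 in DN and 2922 and 2354 in FRC (-2.58 ± 0.15 SE, adjusted p = 7.87e-07), a 5.99-fold difference with no overlap. Cfp was 161 and 197 in DN and 136 and 144 in FRC and did not pass (0.34 ± 0.17 SE, adjusted p = 0.138). C5ar1, not tested, was 56.1 and 134 in DN and 29.4 and 41.0 in FRC. Thus 1 of 2 members tested was lower, where 33.5% (12.2% higher and 21.2% lower) of probe sets were called. Fibroblast markers were alike in sum, 30741 to 37718 in DN and 35639 to 37202 in FRC. Macrophage markers summed to 1234 to 1524 in DN and 541 to 612 in FRC, with Mertk at 867 and 240.1 and Adgre1, Fcgr1 and Csf1r dim in both. Platelet markers summed to 363 to 719 in DN and 334 to 356 in FRC, and the part of these markers was not tested. Of other complement genes, 4 of 22 were higher and 9 lower, with Clu, clusterin, at 859.6 in DN and 6253 in FRC (-2.87 ± 0.17 SE, adjusted p = 1.20e-06) and C4b at 829.02 and 4770.1 (-2.53 ± 0.26 SE, adjusted p = 4.72e-05).

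No response of the members to CFA was detected in stroma with 2 arrays a group. In FRC, Cfb was 2417 and 2217 at day 6 of CFA and 2922 and 2354 without it, overlapping (-0.18 ± 0.15 SE, adjusted p = 0.604). In DN, Cfb was 599 and 567 with CFA and 416 and 461 without, apart but not called (0.41 ± 0.15 SE, adjusted p = 0.422), and it was the member with an unadjusted p under 0.05 there. Limma called 0 of 2 members in each comparison, where 0.00698% (0.00698% higher and 0% lower) of probe sets were called in FRC and 0.0838% (0.0698% higher and 0.014% lower) in DN; 1942 and 1442 of 14325 probe sets had an unadjusted p under 0.05. The CFA response of DN minus that of FRC was 0.59 ± 0.21 (SE; adjusted p = 0.543) for Cfb and -0.29 ± 0.23 (SE; adjusted p = 0.72) for Cfp, and 0.0838% (0.0628% higher and 0.0209% lower) of probe sets passed this test. C5ar1, not tested, was 64.7 and 64.8 with CFA and 56.1 and 134 without in DN. Cfp was 157 and 162 with CFA and 161 and 197 without in DN (-0.16 ± 0.17 SE, adjusted p = 0.736). Of 22 other complement genes tested, none passed in either cell type, and 2 in FRC and 4 in DN had an unadjusted p under 0.05.

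**Figure D4:**
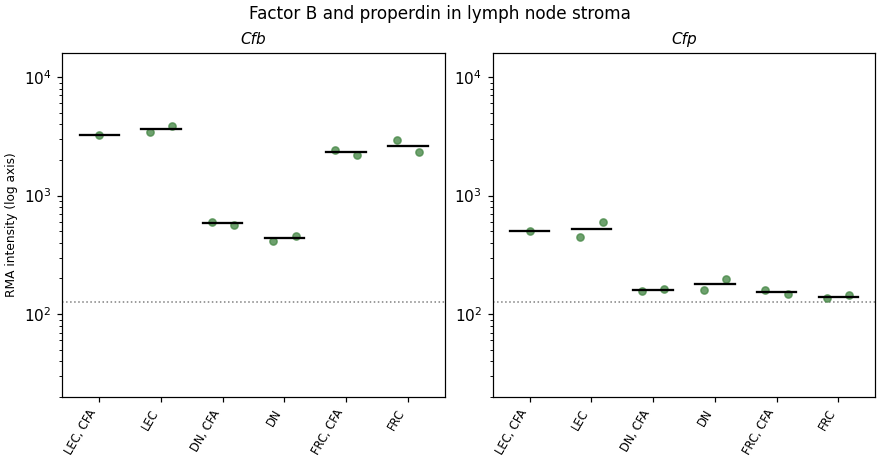
RMA intensity (log axis) of Cfb and Cfp in lymph node stroma, with a point per array, a bar at the group mean and a dotted line at the median of all values. Cfb lies between 416 and 599 in the 4 DN arrays and above that in all LEC and FRC arrays, and Cfp is highest in LEC.

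In thymic epithelium, C1qb and Cfb were over the median in arrays of medullary cells titled MEChi, a population known for showing tissue-restricted genes to developing T cells. At 8 weeks C1qb was 532 and 635 in MEChi, against 88.8 and 69.5 in MEClo (2.89 ± 0.29 SE, adjusted p = 2.50e-07). Cfb was 417 and 375 in MEChi and 86.8 and 91.2 in MEClo (2.15 ± 0.18 SE, adjusted p = 2.61e-08). Of 4 members tested, these 2 were higher, where 42.6% (20.8% higher and 21.7% lower) of probe sets were called, and the members' median was 1.24, against -0.051 over all tested. C1qa (0.34 ± 0.26 SE, adjusted p = 0.332) and Cfp (0.22 ± 0.17 SE, adjusted p = 0.33) did not pass. C1qc, at 129 and 107 in MEChi and 54.4 and 56.2 in MEClo, was not tested because no group mean of this fit reached the filter, and the same holds for C3ar1 and C5ar1, dim in all thymic groups. Without the filter C1qc was also called, at 1.09 ± 0.28 SE, adjusted p = 0.00532. The single 5-week MEChi array had 447 for C1qb and 366 for Cfb.

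Cortical cells titled CEChi, set against MEChi, had C1qb of 106 and 76.7, against 532 and 635 in MEChi (-2.69 ± 0.29 SE, adjusted p = 3.71e-07), and Cfb of 80.7 and 72.3, against 417 and 375 (-2.37 ± 0.18 SE, adjusted p = 3.77e-09). Cfp was 143 and 116 in CEChi and 194 and 177 in MEChi (-0.53 ± 0.17 SE, adjusted p = 0.0131). Together 3 of 4 members tested were lower, where 51.9% (26.6% higher and 25.2% lower) of probe sets were called, and the MEChi arrays are shared with the comparison above. C1qc was called lower without the filter (-0.85 ± 0.28 SE, adjusted p = 0.0196). Cfp lost its call without CEChi replicate 2 or MEChi replicate 1 (adjusted p = 0.142 and 0.0861). T cell markers summed to 2365 to 2928 in CEChi and 556 to 598 in MEChi, with Cd3e at 1187 and 198. Dendritic cell markers summed to 465 to 514 in CEChi and 2373 to 2784 in MEChi. Adgre1 was 31.6 in CEChi and 118 in MEChi. The part of all these markers in the result was not tested. Of other complement genes, 6 of 16 were higher and 5 lower in MEChi than in MEClo, and 4 were higher and 10 lower in CEChi than in MEChi. Cr2, complement receptor 2, was 268 in MEChi and 69.1 in MEClo (1.95 ± 0.20 SE, adjusted p = 3.64e-07). Susd4, a complement regulator, was 1413 in CEChi and 118 in MEChi (3.58 ± 0.12 SE, adjusted p = 3.83e-13).

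Among MHCII high medullary cells, GFP+ cells were higher than GFP- cells in C1qb and Cfb and lower in Cfp, 3 of 4 members tested, where 43.9% (24.4% higher and 19.4% lower) of probe sets were called. C1qb was 604, 542 and 569 in GFP+ and 418, 296 and 190.1 in GFP- cells (1.00 ± 0.24 SE, adjusted p = 0.00257). Cfb was 407, 449 and 428 in GFP+ and 205, 252 and 203 in GFP- cells (0.97 ± 0.15 SE, adjusted p = 4.55e-05). Cfp was 195, 180.2 and 169 in GFP+ and 235, 251 and 228 in GFP- cells (-0.39 ± 0.14 SE, adjusted p = 0.0269). No pair overlapped. C1qa did not pass (0.50 ± 0.22 SE, adjusted p = 0.0675), but with the replicate number as a block it did (adjusted p = 0.0277), as it did without GFP- replicate 6 (adjusted p = 0.00911). GFP+ cells (147.4) were the only thymic epithelial group with a C1qa mean over the median. C1qa was thus tested only because these cells are high in it, and nothing is read from those passes. Cfp lost its call without GFP+ replicate 7 or 8 or GFP- replicate 6 or 7 (adjusted p = 0.0533 to 0.0929). The members' median was 0.73, against 0.028 over all tested, and 4 of 16 other complement genes tested were higher and 7 were lower.

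GFP+ cells of the KO were lower than other GFP+ cells in 3 of 4 members tested, where 17.3% (7.82% higher and 9.48% lower) of probe sets were called. C1qb was 261, 184 and 325 in KO and 604, 542 and 569 in other GFP+ cells (-1.19 ± 0.24 SE, adjusted p = 0.00139). Cfb was 354, 333 and 238 in KO and 407, 449 and 428 in other GFP+ cells (-0.49 ± 0.15 SE, adjusted p = 0.0273). Cfp was 149.9, 108 and 137 in KO and 195, 180.2 and 169 in other GFP+ cells (-0.47 ± 0.14 SE, adjusted p = 0.0232). The arrays did not overlap for these genes. The Cfb call was lost without KO replicate 3 or GFP+ replicate 7 or 8 (adjusted p = 0.0711 to 0.145), and the Cfp call without KO replicate 2 or GFP+ replicate 6 or 7 (adjusted p = 0.061 to 0.154). C1qa, again tested only because the other GFP+ cells are high in it, did not pass (-0.42 ± 0.22 SE, adjusted p = 0.204) except without KO replicate 3 (adjusted p = 0.0471). The median was -0.48, against 0.054 over all tested, and 2 of 16 other complement genes tested were higher and 7 were lower. Serping1, the C1 inhibitor, was 184 in KO and 444 in other GFP+ cells (-1.28 ± 0.17 SE, adjusted p = 1.65e-05).

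Markers of other cells also differed between these groups. At 8 weeks, dendritic cell markers summed to 2373 to 2784 in MEChi and 454 to 520 in MEClo. Adgre1 was 118 in MEChi and 27.8 in MEClo, and 40.8 in KO, 176 in GFP+ and 36.3 in GFP- cells, while Mertk and Fcgr1 were dim in all 5, with Mertk at 54.4 in MEChi and 63.3 in GFP+ cells. All 5 macrophage markers measured summed to 763 to 796 in MEChi, 339 to 385 in MEClo, 584 to 756 in KO, 877 to 978 in GFP+ and 588 to 935 in GFP- cells. Hepatocyte markers summed to 2475 to 2561 in MEChi, 341 to 352 in MEClo, 374 to 505 in KO, 1754 to 2335 in GFP+ and 1353 to 1584 in GFP- cells. The 7 neutrophil markers summed to 3749.6 to 4210.0 in MEChi, 318 to 318 in MEClo, 317 to 332 in KO, 3232 to 3954 in GFP+ and 1531 to 2200.0 in GFP- cells. Epithelial markers were far over the median in each of these groups. The part of these genes in the result was not tested.

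**Figure D5:**
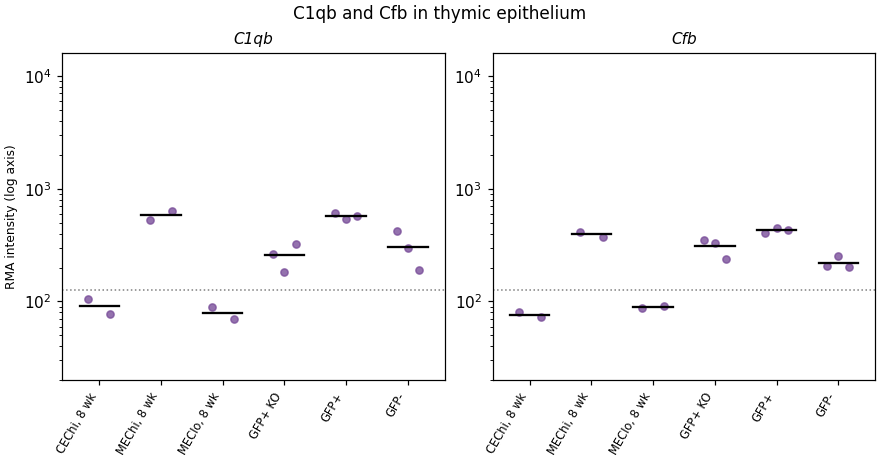
RMA intensity (log axis) of C1qb and Cfb in thymic epithelium, with a point per array, a bar at the group mean and a dotted line at the median of all values. CEChi and MEClo arrays lie below the line for both genes, and MEChi and GFP+ arrays lie above it, at 532 to 635 and 542 to 604 for C1qb.

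In T cells Cfp was the 1 member to pass the filter, the other 6 being under it, and it was lower after activation in each comparison. CD4 cells had 131 and 129.9 after 24 h with beads, against 244 and 166 in controls (-0.63 ± 0.16 SE, adjusted p = 0.00353), where 54.2% (33.4% higher and 20.8% lower) of probe sets were called. CD8 cells had 144.9 and 141 after 24 h and 202 and 191 in controls (-0.46 ± 0.16 SE, adjusted p = 0.0304), where 44.3% (25.7% higher and 18.6% lower) of probe sets were called. CD4 effectors of LCMV infection had 164 and 134, against 243 and 203 in naive cells (-0.58 ± 0.16 SE, adjusted p = 0.0113), where 29.5% (17.3% higher and 12.2% lower) of probe sets were called. No pair overlapped, and every value was at the low end of the scale. The CD4 call was lost without control replicate 1 (adjusted p = 0.106), the CD8 call without any of its 4 arrays (adjusted p = 0.0678 to 0.133), and the effector call without effector replicate 2 or naive replicate 1 (adjusted p = 0.146 and 0.118). The 24 h response of CD8 minus that of CD4 cells was 0.17 ± 0.23 (SE; adjusted p = 0.82), not called, where 0.798% (0.22% higher and 0.578% lower) of probe sets were. Among other complement genes Cd55 was lower in all 3: 98.9 at 24 h against 496 in control CD4 cells (-2.32 ± 0.26 SE, adjusted p = 5.36e-07), 151 at 24 h against 495 in control CD8 cells (-1.75 ± 0.26 SE, adjusted p = 2.15e-05) and 154 in effectors against 654 in naive cells (-2.06 ± 0.26 SE, adjusted p = 5.22e-06). Of 10 other complement genes tested, 4 were lower in CD4 cells and 3 in CD8 cells at 24 h with none higher, and in effectors 3 were higher and 1 lower.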

How the data were processed

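The authors' deposited table holds linear RMA intensities of 24922 probe sets on the arrays of 65 groups, made with Affymetrix Power Tools and RMA per the submitters' processing notes, with versions and probe design not given in the sources used here. RMA subtracts background, makes the arrays' distributions alike and summarises the probes of a set, so a shift shared by all genes of an array is removed. No pair of arrays held identical values. The number of arrays limits the precision. The log2 of the deposited intensity was taken. Probe sets were named by the platform annotation: 21425 had 1 symbol, 1399 had several and 2098 had no listed gene; only the first kind was named, and an old symbol was kept as listed.

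Comparisons within 5 sets of related groups were fitted with limma 3.58.1 (lmFit and eBayes, two-sided) in R 4.3.3, the groups of a set sharing 1 estimate of spread. Probe sets whose highest group mean was below the median of all values on those arrays were left out. Benjamini-Hochberg adjustment ran over all others in each comparison, and an adjusted p under 0.05 was a call. There were 25 comparisons and 2 tests of the difference between responses. The fit was tested on simulated data. Members, gene lists and comparisons were chosen with earlier results of these data known. The text names every member; of 42 other complement genes measured, some of the 4 called genes with the largest change and no overlap in a comparison; and for likeness the 5 genes with the highest r. Alternatives were another filter or none, quantile normalization, an offset of 32 before the logarithm, other sets of arrays in the fit, limma with trend and robust variances, all probe sets of a gene, the replicate number as a block, and each array left out in turn.

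Of the comparisons with 3 shared replicate numbers, the numbers paired the arrays of GFP+ and GFP- medullary cells, whose same-numbered arrays deviated together over the probe sets tested (r between 0.20 and 0.50), a pairing read from the data and not from the labels. In the other 7 such comparisons at least 1 number had an r below 0.1.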

Additional observations from a re-analysis of the deposited data

Results flagged for a closer look

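Of 14 combinations of a member and a group of 4 arrays, 1 held an array far from the others by Dixon's test, which flags about 1 in 20 groups by chance. Blood neutrophil replicate 7 had 117 for Cfb, and the other 3 arrays were between 87.1 and 90.4, a gap of 0.888 of the range. All 4 values are below the median of all values.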

How the results depend on the processing

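Over the 25 comparisons and 2 differences of responses, 1736 of the members' log2 differences kept their side of the threshold under an alternative, 23 passed it newly, 87 no longer passed and none that was called changed sign. Alternatives left the count of members called within 1.5 times in 343 cases and moved it in 46. Without the filter on dim probe sets the count was 2 for peritoneal against liver macrophages, 2 for DN against FRC, 3 for CD4 cells at 24 h and 2 for CD8 cells at 24 h, and the added calls of the last 3 were C1qa and C5ar1, which are dim there; C1qc was added for MEChi against MEClo and for CEChi against MEChi, and C5ar1 for KO against other GFP+ cells. With the filter at the 75th percentile it was 3 for neutrophils against monocytes, 4 for mast cells against eosinophils and 0 for each T cell comparison, because fewer members were tested. With every array fitted together it was 2 for lung against blood monocytes, 1 for LEC against FRC, 2 for DN against FRC and 0 for CD8 cells at 24 h and for CD4 effectors. With only the groups compared in the fit it was 6 for liver macrophages and 0 for CD4 cells at 24 h, and the share of all probe sets called was not counted. With the replicate number as a block it was 2 for lung against blood monocytes, where pairing by number was not examined, and 2 for peritoneal against liver macrophages. Beside C1qa in GFP+ against GFP- cells, given above, the block changed the call of C1qc in lung against blood monocytes. It also changed those of C3ar1 and Cfb in peritoneal against liver macrophages. The cause was not tested for these changes.

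With 1 array left out at a time, the count of members called ranged between 4 and 6 for node against lung monocytes, 0 and 2 for lung against blood monocytes, 0 and 1 for liver F4/80 high against intermediate macrophages, 1 and 2 for peritoneal against liver macrophages, 4 and 5 for neutrophils against monocytes, 2 and 3 for skin against peritoneal mast cells, 1 and 2 for LEC against FRC, 1 and 2 for DN against FRC, 0 and 1 for DN with CFA (the added call in both DN comparisons, C5ar1, enters only through the 1 DN array left, so nothing is read from it), 1 and 3 for KO against other GFP+ cells, 0 and 1 for CD4 cells at 24 h, 0 and 0 for CD8 cells and 0 and 1 for CD4 effectors. In the remaining comparisons it stayed within 1 of its full value. Signals at or under the median of all values limit what can be seen for C1q in T cells and stroma and for C3ar1 and C5ar1 outside myeloid cells.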

Other observations

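Some arrays enter no comparison. Among CD8 cells titled Mem (KLRG1- CD127+) at day 8 of LisOVA, from 45-day-old males, replicate 1 stood above the others in 4 members. C1qb was 1273, 162 and 109.9, C1qc 340.2, 82.2 and 64.9, C3ar1 156, 45.6 and 59.2 and Cfp 588, 158 and 165 in replicates 1, 2 and 3. In the same order Adgre1 was 244, 40.2 and 34.5, and the 5 macrophage markers summed to 1132, 599 and 668, so these genes and F4/80 were high in the same array. Mertk was dim in all 3.

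The single array of mesenteric node monocytes was near those of the skin-draining node for C1qb (939) and Cfb (909.6) but not for C3ar1 (154, against 634 to 1436 in the skin-draining node). Blood monocytes titled 6+2+ (1 array) had 372 for C1qb, above the 124 and 135 of those titled 6+2-. Blood basophils (1 array) had 8604 for C3ar1 and 1059 for C5ar1, so this array was over the median for both receptors. These values have no replicate.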
